A study of Mus musculus with 4 samples.

Results

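The amyloid precursor family and the secretases that cut it were measured in the left hippocampus of wild-type mice, as transcripts on an Affymetrix expression array. The genes are App, its homologues Aplp1 and Aplp2, the beta-secretase Bace1, the alpha-secretase Adam10, and Psen2, Psenen, Ncstn and Aph1a of the gamma-secretase complex. They are 9 of 18194 genes with a probe set of their own. A probe set was taken when the array's probe table paired it with exactly 1 gene symbol and that symbol was 1 of the 9, which gave 27 of 34958 such probe sets. The rule uses no measured value, although the genes were picked with earlier results of these data known.

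The study holds 4 samples, numbered 11, 13, 15 and 17 in the labels, with 1 array each. All are wild type and described as biological replicates, so they form 1 group and no treated or mutant group is compared. The sources used here do not give strain, age, sex or treatment, nor whether each sample is a separate animal, so every spread and p-value below measures only the spread between these samples. The whole hippocampus was extracted, so fewer cells of a type and less RNA per cell cannot be told apart.

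App is a transmembrane protein of neurons and other cells. Adam10 cuts it within the amyloid-beta stretch and releases a large soluble part, while a cut by Bace1 at the start of that stretch leaves a stub from which gamma-secretase frees the amyloid-beta peptide. Gamma-secretase is a membrane complex of a presenilin, which carries the catalytic site, with nicastrin (Ncstn), Aph1 and Pen-2 (Psenen). Aplp1 and Aplp2 are cut by the same enzymes but lack the amyloid-beta sequence, and in the hippocampus the family is known for roles at synapses.

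Each of the 9 genes was detected in all 4 samples by at least 1 probe set, Psen2 only narrowly. Detected means above a background of 6.27 on the log2 scale, set at the 95th percentile of 51 genes typical of other tissues such as testis and liver. Of the 27 probe sets, 14 lay above this limit in all 4 samples, where 33.6% of all probe sets with 1 symbol did. Counted by gene, through the probe set with the highest mean, it was 9 of 9, where 44.7% of all genes passed. Probes differ in affinity, so levels of different genes are not ranked. A level under the limit does not show that a transcript was absent.

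Detection was least secure for a pair of gamma-secretase genes. With the limit at the 99th percentile of the same background genes, 7.27, the count was 7 of 9 genes and 11 probe sets, and Psen2 and Ncstn were the genes under it. Psen2 was also the gene lost when the arrays were centred on their medians and when sample 11 was left out, which gave 8 of 9 genes and 13 probe sets each. With the 90th percentile, 5.77, it was 9 of 9 genes and 17 probe sets.

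**Figure D1:**
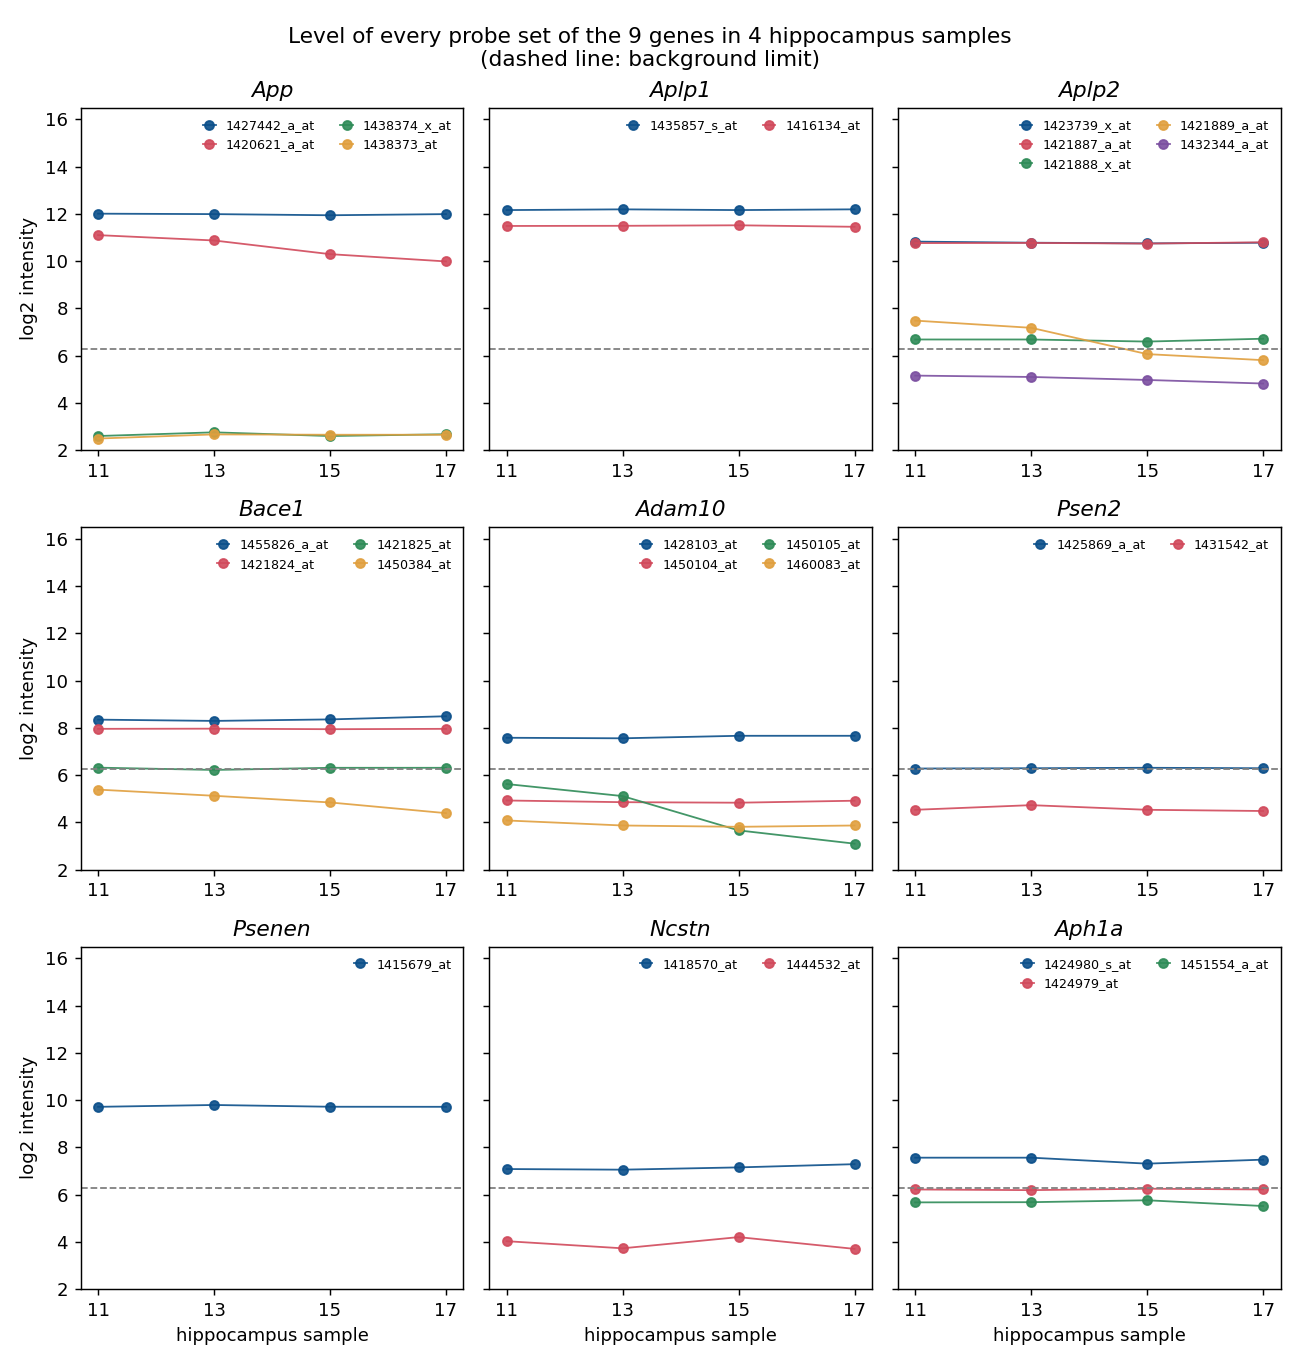
Log2 intensity of each of the 27 probe sets in hippocampus samples 11, 13, 15 and 17, 1 panel per gene, with the background limit of 6.27 as a dashed line. Points are single arrays and lines only join the points of a probe set. Most lines are flat, while 5 are highest in sample 11, lower in each of samples 13 and 15 and lowest in sample 17: 2 of Aplp2 and 1 each of App, Bace1 and Adam10. Of all 34958 probe sets with 1 symbol, 1337 lay in that order. Of the 14 member probe sets above background only that of App did, where 458 of all 11730 above background did.

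Among the substrates, App was read by 4 probe sets. The one with the highest mean, 1427442_a_at, had log2 intensities of 12.01, 11.99, 11.94 and 11.99 in samples 11, 13, 15 and 17, a mean of 11.98 ± 0.029 (SD, n = 4). The samples lay within a 1.05-fold range. The second, 1420621_a_at, stood at 11.10, 10.88, 10.30 and 9.99 in samples 11, 13, 15 and 17, with a mean of 10.57 ± 0.51 (SD, n = 4). Sample 11 was highest here and sample 17 lowest, 2.16-fold apart, although the values lay far above background throughout. The remaining App probe sets, 1438374_x_at and 1438373_at, had means of 2.66 and 2.62 and were under the limit in every sample. Only 4.32% and 3.62% of all probe sets with 1 symbol had a lower mean than these.

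Aplp1, a homologue found mainly in neurons, gave high and nearly equal values in all samples with both of its probe sets. For 1435857_s_at the log2 intensity was 12.16, 12.19, 12.16 and 12.19 in samples 11, 13, 15 and 17, and for 1416134_at it was 11.49, 11.50, 11.52 and 11.45. The SDs were 0.018 and 0.026 (n = 4). The letter s in such a name marks a probe set whose probes can match transcripts of more than 1 gene, x marks possible cross-hybridisation, and a marks a set shared by several transcripts of a gene.

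Aplp2, the widely expressed homologue, was read by 5 probe sets. For 1423739_x_at the log2 intensity was 10.83, 10.78, 10.75 and 10.78 in samples 11, 13, 15 and 17, and for 1421887_a_at it was 10.77, 10.77, 10.75 and 10.80. The samples differed by at most 1.05-fold in either. A further one, 1421888_x_at, was above background at 6.67 ± 0.052 (SD, n = 4). For 1421889_a_at the samples differed more, with 7.49, 7.18, 6.07 and 5.81 in samples 11, 13, 15 and 17. It was thus above the limit in 2 samples and under it in the other two, with a span of 1.67. The last, 1432344_a_at, lay under the limit in each sample, from 5.16 in sample 11 to 4.82 in sample 17.

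Of the secretases that cut the outer part, Bace1, the aspartyl protease that starts amyloid-beta formation, was detected by 2 of 4 probe sets. For 1455826_a_at the log2 intensity was 8.35, 8.30, 8.36 and 8.49 in samples 11, 13, 15 and 17 (mean 8.38 ± 0.084, SD, n = 4). For 1421824_at it was 7.96, 7.97, 7.95 and 7.96, with an SD of 0.0093, the smallest of the 27. A further one, 1421825_at, sat at the limit, with 6.32, 6.22, 6.31 and 6.31, and passed it in 3 of 4 samples. The last, 1450384_at, was under the limit at 5.39, 5.13, 4.85 and 4.39, again highest in sample 11 and lowest in sample 17.

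Adam10, the metalloprotease that acts as the main alpha-secretase of neurons, was detected by 1 of 4 probe sets. For 1428103_at the log2 intensity was 7.58, 7.56, 7.67 and 7.67 in samples 11, 13, 15 and 17 (mean 7.62 ± 0.056, SD, n = 4). Samples 15 and 17 held the same value, 1.08-fold above sample 13. The widest range of all 27 probe sets belonged to 1450105_at, at 5.63, 5.12, 3.67 and 3.10, a span of 2.52 on the log2 scale that lay wholly under background. The other Adam10 probe sets were under the limit with SDs of 0.046 for 1450104_at and 0.12 for 1460083_at.

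Of the gamma-secretase genes, Psen2 and Psenen had small SDs through their brightest probe sets, while Ncstn and Aph1a had the largest of the 9 genes. Psenen, a small subunit needed for the maturation of the presenilin, was read by a single probe set at 9.72, 9.80, 9.72 and 9.72 in samples 11, 13, 15 and 17 (mean 9.74 ± 0.038, SD, n = 4). Sample 13 stood above the others, by 1.06-fold over sample 11. Psen2, which can carry the catalytic site, had values of 6.28, 6.30, 6.31 and 6.30, all just above the limit of 6.27 (mean 6.30 ± 0.013, SD, n = 4). Its other probe set, 1431542_at, had a mean of 4.57 and lay under the limit.

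Ncstn, the large subunit that helps to admit substrates, stood at 7.09, 7.06, 7.16 and 7.29 in samples 11, 13, 15 and 17 (mean 7.15 ± 0.10, SD, n = 4). Sample 17 was highest, 1.18-fold above sample 13. The other Ncstn probe set, 1444532_at, lay under the limit at 4.03, 3.73, 4.21 and 3.71. The scaffold subunit Aph1a stood at 7.57, 7.57, 7.31 and 7.48 by 1424980_s_at (mean 7.48 ± 0.12, SD, n = 4), lowest in sample 15. Its other probe sets, 1424979_at and 1451554_a_at, had means of 6.22 and 5.66, and were above it in no sample. Aplp1 and Psenen lie on the same chromosome, with 7 protein-coding genes starting between them.

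**Figure D2:**
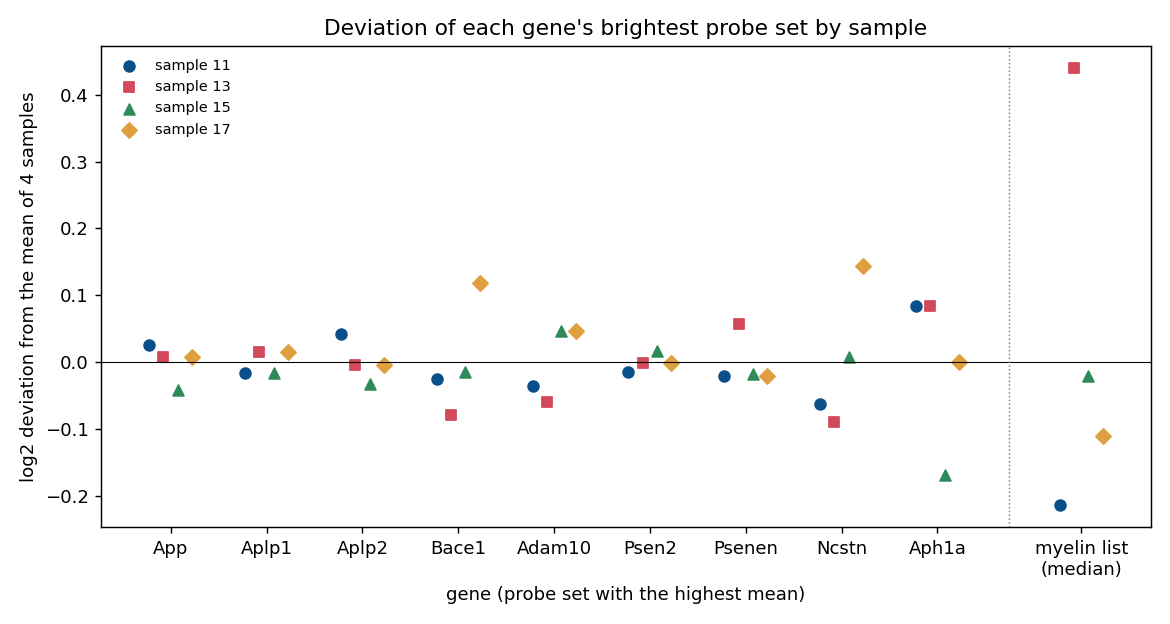
Log2 deviation of the brightest probe set of each gene from its mean over the 4 samples, with 1 marker per sample, and at the right the median deviation of 9 myelin genes. The member genes have SDs between 0.013 and 0.12, and the myelin genes stand 0.44 above their mean in sample 13.

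By those brightest probe sets the 9 genes had SDs from 0.013 for Psen2 to 0.12 for Aph1a, with a median of 0.038. The corresponding median over all genes above background was 0.083, which Ncstn and Aph1a exceeded and Bace1, at 0.084, about equalled. That median was not matched for level, whereas the test of spread below sets each probe set against others of like level. In 14 of the 27 probe sets at least 2 samples held exactly the same value, where 51.1% of all probe sets with 1 symbol did. In members above background it was 8 of 14, against 30.5% of all probe sets above background.

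As a group the members deviated little in any sample. The median deviation of the 14 probe sets above background from their own means was -0.0027, 0.0071, -0.016 and 0.0047 in samples 11, 13, 15 and 17. Over all 11730 probe sets above background it was -0.038, -0.00084, 0.014 and 0.025 in the same order. Sample 15 was lowest for 7 of the 14 and for 17.9% of all, and sample 11 was lowest for 3 of the 14 and for 50.6% of all, ties counted. Those 7 include all 3 Aplp2 probe sets above background, so they are not 7 separate genes.

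None of the 14 tested probe sets passed a test of whether its spread exceeded that of probe sets of like level. The test (limma, Benjamini-Hochberg adjustment over 11730 probe sets, threshold 0.05) called 0 probe sets, or 0% of the background, while 289, or 2.46%, had an unadjusted p under 0.05. Of the members, 1 of 14 did: the App probe set 1420621_a_at, with an unadjusted p of 0.0059 and an adjusted p of 0.886 from limma. Its unadjusted limma p was 0.0913 with the 3' minus 5' difference of the Gapdh controls as a covariate. Without samples 15 and 17 it was 0.0759, and in the other settings it stayed under 0.05. The adjusted p of members ran from 0.429 to 1 over the settings tried. A p that misses the threshold does not show that the samples were alike.

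A second test asked whether the probe sets of a gene gave the same differences between samples. It can be made for the 4 genes with at least 2 probe sets above background: App, Aplp1, Aplp2 and Bace1. None passed, and none had an unadjusted p under 0.05, where 1.15% of 2517 such genes passed and 20.5% had such a p. The 29 genes behind that 1.15% were 2, 8, 6 and 9 without sample 11, 13, 15 or 17, and 162 with the difference between the 3' and 5' control probe sets of Gapdh as a covariate. The Benjamini-Hochberg adjusted p with limma's squeezed variances was 0.478 for App, 0.979 for Aplp1, 0.523 for Aplp2 and 0.686 for Bace1. Probe sets are read on the same 4 arrays and are not independent samples. In App the mean square between samples was 0.139 and that of probe set by sample 0.124. The latter measures how far the App probe sets disagreed on the differences between samples, not how far apart their levels lay. These mean squares were close because the brightest App probe set was steady while the other above background varied.

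The gap between probe sets of 1 gene differed widely between samples for 4 genes. The gap is the log2 intensity of the brightest probe set of a gene minus that of another of its probe sets in the same sample. For App, 1427442_a_at minus 1420621_a_at was 0.91, 1.12, 1.65 and 2.002 in samples 11, 13, 15 and 17. For Aplp2, 1423739_x_at minus 1421889_a_at was 3.34, 3.60, 4.68 and 4.97. In both genes sample 11 had the smallest gap and sample 17 the largest.

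The same order held for the secretases that cut the outer part. For Bace1, 1455826_a_at minus 1450384_at was 2.96, 3.17, 3.51 and 4.10 in samples 11, 13, 15 and 17. For Adam10, 1428103_at minus 1450105_at was 1.96, 2.44, 4.00 and 4.56. The App gap, which alone rests on 2 probe sets above background in every sample, differed 2.14-fold between samples 11 and 17. For the others no fold is given, since their dimmer probe sets lay under the limit in some or all samples. These gaps restate the spans of those single probe sets, because the brightest ones were steady.

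**Figure D3:**
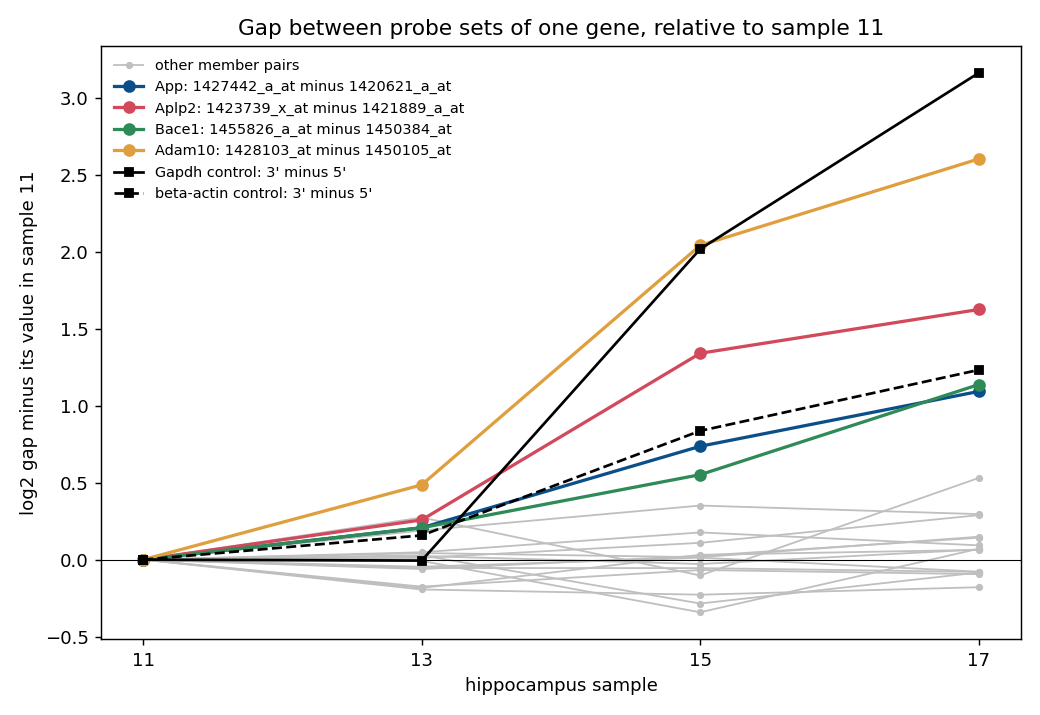
Gap between the brightest probe set of a gene and each other one (log2), minus its value in sample 11, in samples 11, 13, 15 and 17. Coloured lines are the 4 pairs of App, Aplp2, Bace1 and Adam10 whose gap spans at least 1, grey lines the other 14 pairs, and black lines the 3' minus 5' difference of the control probe sets of Gapdh and beta-actin; the coloured and black lines are all highest in sample 17.

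Of 18 such pairs in the 8 genes with several probe sets, 4 had a gap that spanned at least 1 log2 unit, or 2-fold, over the samples. Over all genes whose brightest probe set was above background this was so for 2.98% of 11278 pairs (336). The other 14 member pairs spanned from 0.080, for Aplp2, to 0.63, for Ncstn, and the median span was 0.269 for member pairs and 0.275 for all. Without sample 11, and likewise without sample 17, 2 gaps spanned as much, those of Aplp2 and Adam10. All 4 wide gaps lay in the order of samples 11, 13, 15 and 17 from small to large, as did 69.3% of the 336 on the array, and 83.0% of those 336 were largest in sample 17. The limma test of spread on the gaps, added after the values were seen, called 0 of 11278 pairs, or 0%, with 510 (4.52%) at an unadjusted p under 0.05. The unadjusted p was 0.0249 for App, 0.0091 for Aplp2, 0.0353 for Bace1 and 0.0032 for Adam10, each with an adjusted p of 0.956 from limma.

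Differences of changing size were also found between probe sets designed on 1 and the same database sequence. They involve the same dimmer probe sets of Aplp2, Bace1 and Adam10 as the gaps above, so they are not separate evidence. Those probe sets lay under the limit in some or all samples. The probe table lists a single sequence for 3 Aplp2 probe sets, and 1421887_a_at minus 1421889_a_at was 3.28, 3.59, 4.68 and 4.99 in samples 11, 13, 15 and 17. A single sequence also serves 3 Bace1 probe sets, with 1421824_at minus 1450384_at at 2.57, 2.84, 3.10 and 3.57, a span of 0.996. For the Adam10 pair on 1 sequence, 1450104_at minus 1450105_at was -0.70, -0.26, 1.17 and 1.82, but both probe sets lay under background in all 4 samples, so the sign of that difference is not read. Not every such pair differed: for Aplp2, 1421887_a_at minus 1421888_x_at spanned 0.068, and the 3 differences between Aph1a probe sets on 1 sequence spanned from 0.21 to 0.41. These comparisons were picked after the values were seen and have no test of their own.

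**Figure D4:**
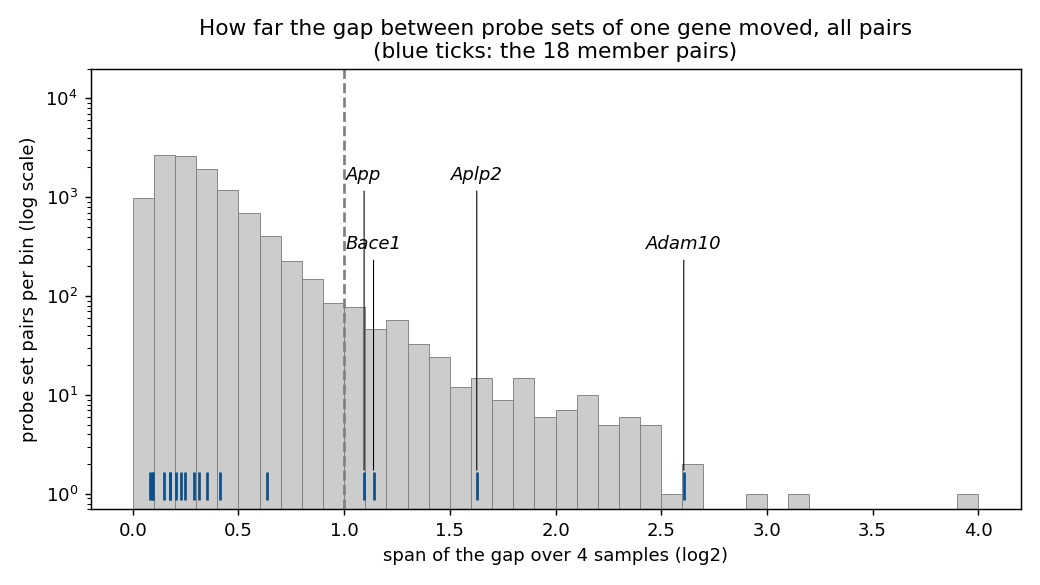
Number of probe set pairs (log scale) by the span of their gap over the 4 samples (log2), for 11278 pairs of all genes, with blue ticks for the 18 member pairs and a dashed line at 1. The pairs of App, Bace1, Aplp2 and Adam10 lie to the right of the line, with 336 of all pairs.

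The 3' and 5' signals of control transcripts differed between samples too. The Gapdh controls, which read the transcript near its 3' and its 5' end, gave 3' minus 5' differences of 0.62, 0.62, 2.64 and 3.79 in samples 11, 13, 15 and 17. For the actin controls it was 1.10, 1.25, 1.93 and 2.33. The 3' probe set of Gapdh held 12.31, 12.32, 12.31 and 12.31, while the 5' set held 11.69, 11.71, 9.67 and 8.52. For beta-actin both ends fell in that order of samples. Its 3' set held 11.48, 11.17, 10.99 and 10.73, and its 5' set 10.38, 9.92, 9.06 and 8.40. The sources used here give no positions of the member probe sets along their transcripts, and the part of the 5' signal in the member gaps was not tested. Between samples 11 and 13 alone, 0 of 18 member gaps and 5 of 11278 in all differed by 1 or more. A difference between single samples cannot exceed the span over all samples, so these counts are not set against those of the spans. The gaps of App, Aplp2, Bace1 and Adam10 were 0.21, 0.26, 0.21 and 0.49 larger in sample 13 than in sample 11.

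Counted by the probe set itself, 3 of the 27 spanned at least 2-fold, where 0.927% of all probe sets with 1 symbol did. They were 1420621_a_at of App, 1421889_a_at of Aplp2 and 1450105_at of Adam10, and all 3 lay in the order of samples 11, 13, 15 and 17 from high to low. Of the 324 probe sets with such a span among all with 1 symbol, 166 or 51.2% lay in that order, which is 0.475% of all. The Bace1 probe set 1450384_at lay just outside at a span of 0.996. Only the App one was above background in all 4 samples, where 0.767% of such probe sets spanned as much. Without samples 15 and 17 the counts of wide gaps and of wide probe sets were both 0. Leaving out samples cannot widen a span, and these samples lay at the far end of the order, so the 0 is no test.

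The cell types of the samples were checked with marker lists. All 12 neuronal markers and 16 of 17 markers of hippocampal principal neurons were above background, Prox1 of granule cells being the exception, with Snap25 at 11.44 ± 0.027 and the CA1 marker Wfs1 at 8.88 ± 0.19 (SD, n = 4). So were all 11 interneuron and 10 astrocyte markers. Blood markers were under background in 5 of 5 cases. Myelin genes were highest in sample 13: 9 of 11 were above background, and their median deviation was -0.21, 0.44, -0.021 and -0.11 in samples 11, 13, 15 and 17. The summed intensity of the list ran from 8338 to 11157 on the linear scale, and Mog and Gjb1 were not above the limit in all samples. Of choroid plexus and ependymal markers 2 of 9 passed, among them the thyroxine carrier Ttr at 7.36, 9.84, 6.86 and 6.54. Microglial markers, 7 of 10 above background, had median deviations of -0.24, -0.0027, 0.14 and 0.042, and mural and meningeal markers, 6 of 10 above background, 0.17, -0.042, -0.054 and -0.063. Of the latter, the prostaglandin D synthase Ptgds stood at 11.73, 11.26, 11.13 and 11.07, highest in sample 11 and lowest in sample 17; it is named after its values were seen. Of the 27 member probe sets 6, or 22.2%, were highest in sample 13, where 30.05% of all probe sets with 1 symbol were. The part of these cell types in the members' values was not tested.

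The other genes of the pathway were mostly detected. Of 125 measured genes in 10 lists, 88 were above background, or 70.4%, where 44.7% of all genes were. None of the 88 passed the limma test of spread. In that test 5 had an unadjusted p under 0.05 (Apba1, Apoe, Bin1, Cntn2 and Sez6l2), where 2.46% of all probe sets above background did. Nor did any of the 41 with several probe sets above background pass the test of probe sets of a gene. Of these 41, 8 had an unadjusted p under 0.05, where 20.5% of all such genes did. The median SD of the 88 was 0.071 and the highest 0.37. Among the other secretases 2 of 5 passed, Adam9 at 7.79 ± 0.088 and the second Aph1 gene, Aph1b, at 8.19 ± 0.13 (SD, n = 4), whereas Bace2, the homologue of Bace1, was under the limit at 4.33 ± 0.096, as were Adam17 and Adam19. Aph1b stood at 8.37, 8.17, 8.17 and 8.07 in samples 11, 13, 15 and 17, highest in sample 11. Of the signal peptide peptidases, relatives of the presenilins, 3 of 3 passed, with Sppl2a at 7.68 ± 0.12, Sppl2b at 7.88 ± 0.053 and Sppl3 at 9.01 ± 0.020 (SD, n = 4).

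Regulators of the secretases were partly detected. Of 5 gamma-secretase regulators 3 passed: Tmed10, a cargo receptor that restrains the complex, at 9.43 ± 0.11 (SD, n = 4), Rer1, which retains subunits early in the secretory path, at 8.09 ± 0.025 (SD, n = 4), and Bsg. Tmed2 was at 3.43 in every sample. Of the partners and inhibitors of Adam10, 8 of 13 passed, with the tetraspanins Tspan5 at 9.496 ± 0.11, Tspan14 at 7.52 ± 0.013 and Tspan15 at 7.40 ± 0.15 (SD, n = 4), which escort Adam10 to the cell surface. Tspan17 had the widest spread, at 7.27, 7.55, 7.80 and 7.66 in samples 11, 13, 15 and 17, lowest in sample 11.

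Adaptors and binding proteins of App were detected in 19 of 21 cases. The Mint adaptors Apba1, Apba2 and Apba3 had means of 8.15 ± 0.37, 9.29 ± 0.090 and 6.83 ± 0.080 (SD, n = 4). Apba1 had the widest spread among those above background, at 7.72, 7.97, 8.45 and 8.48 in samples 11, 13, 15 and 17, lowest in sample 11. Mapk8ip1, a kinesin adaptor that binds the App tail, stood at 8.24, 8.42, 6.98 and 5.93 and so was under the limit only in sample 17; it is named after its values were seen.

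Of the genes that sort App and its secretases, 19 of 21 passed, with the sorting receptor Sorl1 at 10.28 ± 0.069 and Sort1 at 10.54 ± 0.020, while Sorcs1 was under the limit at 4.73 ± 0.066 (SD, n = 4). Bin1, which curves membranes in endocytosis, had the widest spread at 9.29, 9.47, 9.24 and 8.77, lowest in sample 17. Among enzymes that degrade amyloid-beta 7 of 12 passed. Ide was at 8.21 ± 0.095 and Ece1 at 7.45 ± 0.014, whereas Mme, or neprilysin, was under the limit at 3.48 ± 0.11 (SD, n = 4). The protease Plat, with the widest spread of those above background, stood at 7.32, 7.56, 7.18 and 7.40, highest in sample 13.

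Of lipoprotein carriers and receptors 8 of 13 passed, with Apoe at 12.10 ± 0.16, Clu at 12.03 ± 0.075 and Abca1 at 7.89 ± 0.079 (SD, n = 4). Tyrobp, a microglial adaptor, had the widest spread of those above background, at 7.55, 7.73, 7.91 and 7.89, lowest in sample 11. Of other Bace1 substrates 9 of 14 passed, among them Sez6 at 9.11 ± 0.11, Sez6l at 8.69 ± 0.13 and Sez6l2 at 10.35 ± 0.22 (SD, n = 4). The adhesion protein Cntn2, also an App binding partner, had the widest spread there, at 7.55, 8.10, 7.64 and 7.28, highest in sample 13. Of other substrates of gamma-secretase or Adam10, 11 of 19 passed, with Notch1 at 7.99 ± 0.048 above and Notch2 at 5.99 ± 0.24 and Notch3 at 5.99 ± 0.20 under the limit (SD, n = 4). Among those above background the netrin receptor Dcc had the widest spread, at 6.97, 7.04, 7.19 and 7.34, highest in sample 17.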

How the data were processed

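Total RNA of 4 wild-type left hippocampus samples was amplified, labelled with biotin and read on 1 array each, per the labels' protocols. For each probe set the authors deposited a log2 intensity computed by RMA, as the submitters' processing notes state. The sources used here give no software, version or settings. RMA gives the arrays nearly the same distribution (column medians 4.67 to 4.71), so an overall difference in RNA between samples would not be seen.

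The 9 genes and all gene lists were chosen with earlier results of these data known. Symbols were updated through the GRCm38.p6 RefSeq table, which held 34754 of 34958 single-symbol probe sets. Background was the 95th percentile of 51 measured of 56 listed genes of other tissues; the 90th and 99th were alternatives. For members every probe set is given; other genes are represented by the probe set with the highest mean.

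The spread of a probe set was tested with limma, by lmFit on an intercept and eBayes with a trend and robust estimation: residual variance over prior variance, an F statistic with 3 and 2.23 degrees of freedom. The test of probe sets of a gene divided the mean square between samples by that of probe set by sample, squeezed with squeezeVar. Both used Benjamini-Hochberg adjustment at 0.05 and were tested on simulated data. The probe table gave 34958 probe sets 1 symbol, 932 several and 9211 none, and only the first kind was used. The gaps, their test and the omission of samples 15 and 17 together were added after the values were seen. Named genes are all member probe sets, the first 3 measured genes of each pathway list and its gene with the largest SD among those above background, with markers drawn from the first 2 of their lists; genes named as exceptions to a count, Bsg, Ptgds and Mapk8ip1 were added after their values were seen. The software was limma 3.58.1 in R 4.3.3, and matplotlib 3.10.9 in Python 3.11.15 for the figures.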

Additional observations from a re-analysis of the deposited data

Results flagged for a closer look

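Of the 27 member probe sets, 3 had 1 sample far from the others, measured as its gap to the nearest value over the whole range, which exceeded Dixon's 95% critical value. The share was 0.917 for the dim App probe set 1438373_at, lowest in sample 11, 0.935 for the Bace1 probe set 1421825_at, lowest in sample 13, and 0.952 for Psenen 1415679_at, highest in sample 13. Chance marks about 1 in 20 groups of samples where values do not repeat. Here 25.1% of all probe sets with 1 symbol were marked in the same way, 44.8% of those with equal values and 4.45% of those without, so the members' 3 of 27, or 11.1%, was not above the share on the array. The App and Bace1 probe sets hold equal values and that of Psenen does not. The ranges were 0.175, 0.0967 and 0.078 on the log2 scale.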

How the results depend on the processing

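The number of member probe sets above background was 14, lay between 11 and 17 over the limits and ran from 13 to 15 when each sample was left out. Psen2 was lost without sample 11 and with median centring, each leaving 8 of 9 genes. Under every alternative run, 0 members passed either test, including the Gapdh 3' minus 5' difference as a covariate. The spread test also called 0 probe sets of the whole array in every setting run for it, so its result does not set the members apart. The 4 wide gaps between probe sets of a gene were 4 after renewed quantile normalization; median centring shifts whole arrays and cannot change them. They were 2 without sample 11 and 2 without sample 17, in a range of 2 to 4 over single samples left out, and 0 without samples 15 and 17. The 3 probe sets of at least 2-fold span were 2 to 3 with a sample left out and 0 without samples 15 and 17. Leaving out samples cannot widen a span, so no conclusion is drawn from the lower counts of gaps and probe sets. Over all genes, the count whose probe sets shared a pattern was 29, and it was 75 with median centring, 46 at the 99th percentile limit, 162 with the Gapdh covariate, 138 at a threshold of 0.1 and 2 to 9 with a sample left out. With the median of all its probe sets above background, the level of a gene was 11.28 for App, 11.83 for Aplp1 and 8.17 for Bace1. No paired analysis was possible because there is a single group. The number of arrays, 4, limits every value.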
